A study of Mus musculus with 172 samples.

Results

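The response of the liver to sleep deprivation (SD) was read from 78 of the 172 libraries of the series, 39 liver pools of undisturbed control mice (Ctr) and 39 liver pools of SD mice. These are all liver libraries outside the 4 BXD/TyJ lines, and each SD pool was paired with the Ctr pool of the same line. The pairs are 33 BXD/RwwJ lines, which are inbred lines derived from crosses of C57BL/6J and DBA/2J, 4 pools of the parental strains and 2 pools of reciprocal F1 hybrids, BD and DB. DB is the hybrid labelled DBA/2J x C57/BL/J F1. All groups were males of 11 to 14 weeks without a transgene or drug, with food and water at hand. SD mice were kept awake by gentle handling for 6 h from light onset, Ctr mice were left alone in another room, and both were killed 6 h after light onset. Loss of sleep, handling and the room can therefore not be told apart, and food intake was not analysed here. RNA of 3 mice was mixed in equal amounts for each pool of 36 pairs, and of fewer mice for BXD79, BXD85 and BXD101. Each pool gave 1 library, so the spread between pairs holds differences between lines and strains together with those between pools and libraries. These cannot be told apart. Pools of the same parental strain were kept as separate pairs. So were BXD48a, BXD65a and BXD73b, whose labels repeat the numbers of BXD48, BXD65 and BXD73 in the same set. How closely these lines are related was not analysed here.

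The liver makes most plasma proteins, stores and releases glucose, builds and burns fat, and turns cholesterol into bile acids. It carries its own circadian clock, and its genes answer to feeding, to glucocorticoids from the adrenal gland and to body temperature. Proteins that lose their fold are handled by heat shock proteins in the cytosol and by the unfolded protein response in the endoplasmic reticulum (ER), where secreted proteins are made.

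Levels are given as log2 CPM, the logarithm of the reads of a gene scaled to the size of its library. In the deposited values, Ctr libraries held 5034166 to 8269401 reads (median 6752508) and SD libraries 4681101 to 8009362 reads (median 6563242). These are reads recovered from the log2 CPM and summed over the listed genes, here and below. The study reports far more sequenced reads for each library, and the reason for the gap was not tested. A gene was tested when its mean over the 78 libraries was at least 0 log2 CPM, which 12871 of 14107 listed genes reached. The paired change, SD minus Ctr, was tested in limma with the pair of pools as a block. A change was called where the p adjusted over the 12871 genes by the method of Benjamini and Hochberg was under 0.05. Of these, 7299 (56.7%) were called, 3593 that rose (27.9%) and 3706 that fell (28.8%). The median change of all tested genes was 0.0024. Most changes were small, with a median absolute size of 0.19 among the called genes, and 838 called genes changed by at least 0.5, 309 up and 529 down. Against these shares the members of 48 functional lists and 10 lists of cell type markers are given below. The 48 lists hold 1834 tested genes, of which 577 rose and 364 fell.

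Densely read genes moved with the depth of the libraries. No gene had more than 1.78 reads per base of its exons, the mean of *Alb*, which makes serum albumin. The 853 genes with at least 0.5 reads per exonic base had a median absolute change of 0.032, against 0.095 for other genes with at least 100 reads, and 29.9% of them were called against 58.5% of the rest. Their median change in a pair ran against the ratio of SD to Ctr reads of that pair. Over the 39 pairs Pearson's r was -0.97 and Spearman's rho was -0.97, each with p = 2e-05 in a two-sided permutation test, the smallest that 100000 resamples can give (4e-05 adjusted over these 2 relations). Without the 2 pairs farthest from the median ratio, BXD70 and DB, r was -0.96. For the other genes r was -0.24 (adjusted p = 0.135, permutation test) and rho was -0.11 (adjusted p = 0.51, permutation test). The pairs BXD70 and DB stood apart. BXD70 had 6084586 reads in Ctr and 4681101 in SD, and its densely read genes had a median change of 0.34. DB had 5034166 reads in Ctr and 6563242 in SD, and a median change of -0.31. The counts without each of them, and with the depth ratio as a covariate, are given below for the lists where they differ most.

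**Figure D1:**
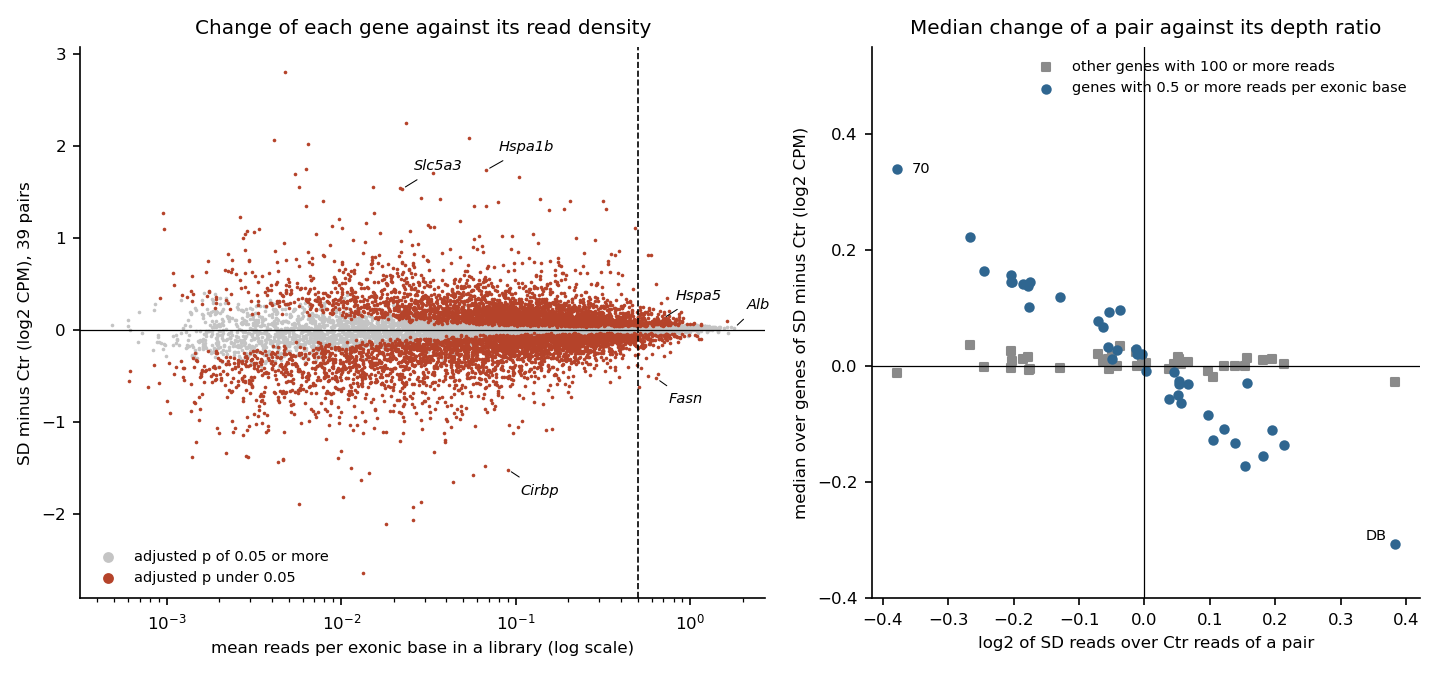
The left panel plots the change of each gene (SD minus Ctr, log2 CPM) against its mean reads per exonic base on a log axis, with called genes in red and a dashed line at 0.5 reads per base. The right panel plots, for each of the 39 pairs, the median change of the genes with at least 0.5 reads per exonic base (blue circles) and of other genes with at least 100 reads (grey squares) against the log2 ratio of SD to Ctr reads. The spread of the changes narrows towards *Alb* at 1.78 reads per base, and the blue points run from 0.34 in BXD70 to -0.31 in DB.

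The tissue label was checked against 16 hepatocyte markers, all of which were listed, and none was at 0 in all libraries. Their summed level was 4469 to 7223 CPM in Ctr (median 5295) and 4636 to 6347 CPM in SD (median 5543), higher in SD in 21 of 39 pairs. The plot of the shares of each list shows which groups lay beyond the background of all genes. Heat shock proteins, glucocorticoid-responsive genes and ER chaperones lay farthest to the side of a rise, and cholesterol synthesis, fatty acid synthesis and the antioxidant list farthest to the side of a fall, beside the 2 cold-inducible genes.

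**Figure D2:**
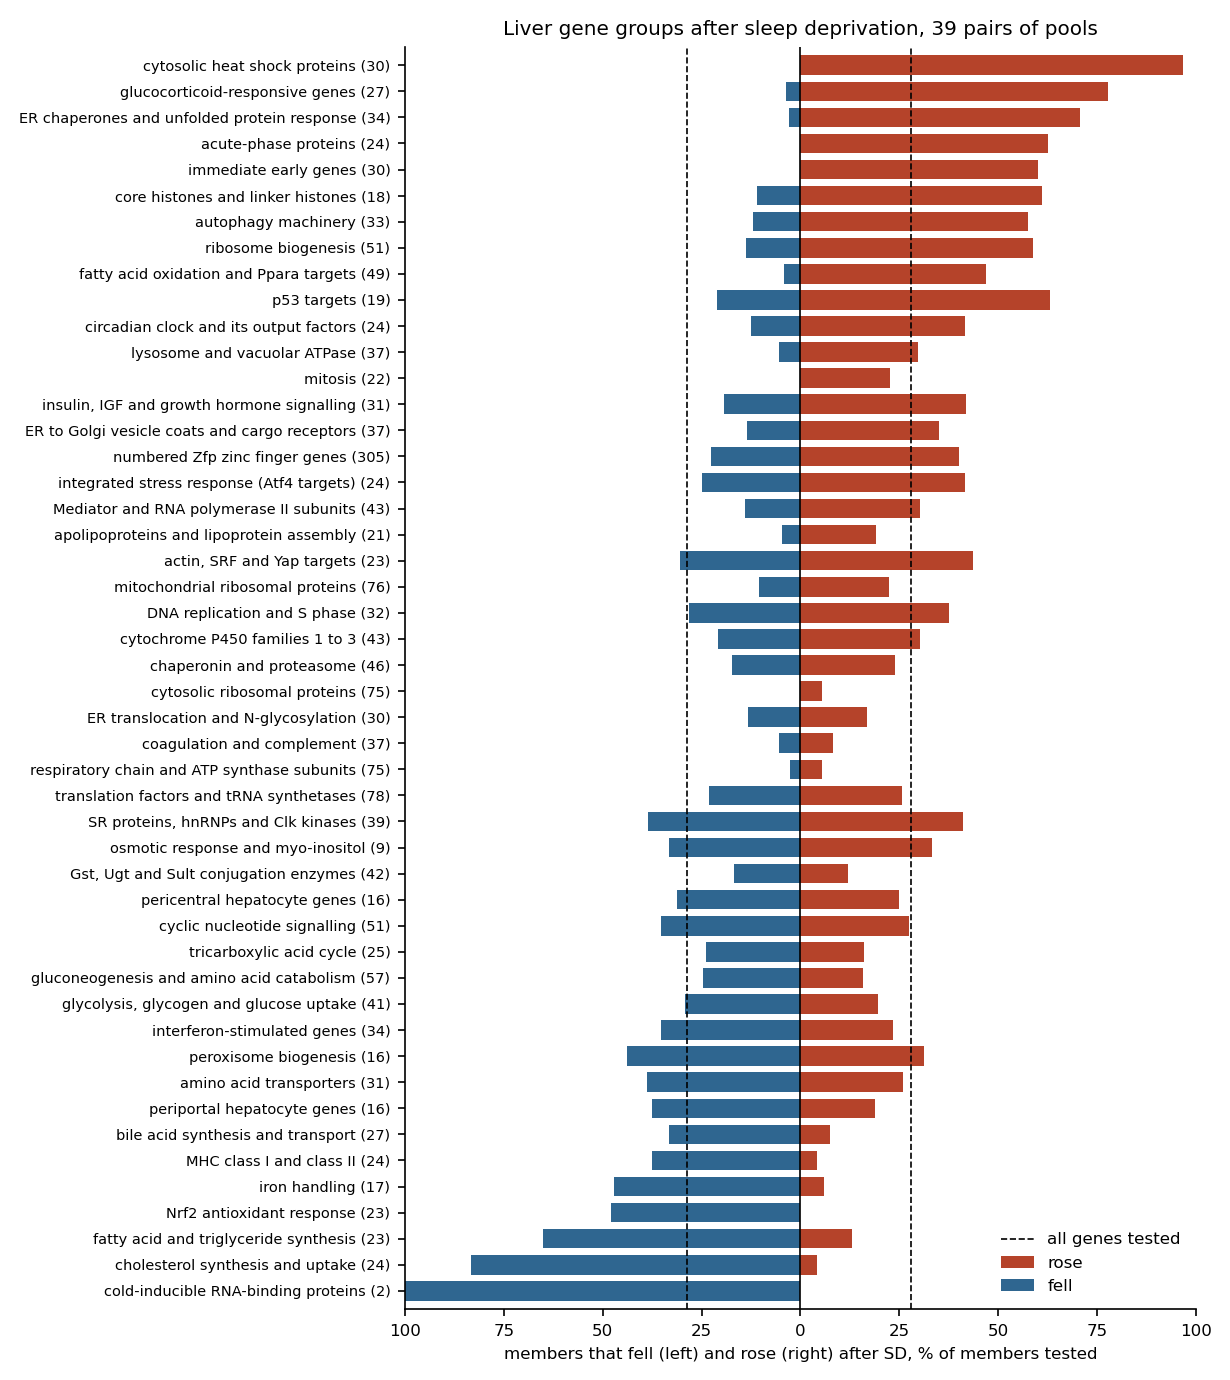
Each bar gives, for 1 of 48 gene lists (number of tested members in parentheses), the percentage of tested members that rose (red, right) or fell (blue, left) after SD in 39 pairs. Dashed lines mark the shares among all genes tested, 27.9% up and 28.8% down, which 29 of 30 heat shock genes and 20 of 24 cholesterol genes exceed.

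Protein folding in the cytosol rose as a group. Of 30 cytosolic heat shock genes, 29 rose and none fell, with a median change of 0.29, and the median over the list was above 0 in 39 of 39 pairs (from 0.12 in BXD50 to 0.53 in the DBA/2J pool DB2). The list also holds *Hspd1* and *Hspe1*, the chaperonin pair of the mitochondrion. *Hspa1b*, an inducible Hsp70 chaperone, lay at 2.40 to 5.04 log2 CPM in Ctr (median 3.67) and at 4.45 to 6.48 in SD (median 5.26). Its change was 1.74 (standard error 0.10, limma adjusted p = 7.92e-19), a rise in 39 of 39 pairs, although the ranges of both groups overlap. *Hspa1b* and *Hspa1a*, which rose by 1.69, are near-identical copies among which reads can be split, so the value of each is uncertain. *Hspb1*, a small heat shock protein, rose by 1.40 (standard error 0.06) and *Hsph1*, which recharges Hsp70, by 1.31 (standard error 0.04), from 6.44 to 7.29 log2 CPM in Ctr to 7.63 to 8.43 in SD without overlap of the groups. *Hspa8*, the constitutive Hsp70, rose by 0.23 and *Hsp90aa1*, the inducible Hsp90, by 0.63, both by less than *Hsph1*. Of the 30 genes 7 were densely read. *Hsf1*, the transcription factor that drives these genes, rose by 0.29 (standard error 0.03). Co-chaperones moved the same way, *Dnajb1* by 0.74, *Chordc1* by 0.72 and *Ahsa2* by 0.54, and in each of these 3 the groups did not overlap.

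Within the ER the rise was smaller and less even. Of 34 chaperones and unfolded protein response genes, 24 rose and 1 fell, with a median change of 0.12, above 0 in 36 of 39 pairs and lowest in DB at -0.17. *Derl3*, which serves the export of misfolded proteins from the ER, lay at 0.40 to 4.56 log2 CPM in Ctr (median 3.20) and 2.90 to 6.53 in SD (median 4.81). Its change was 1.66 (standard error 0.15, limma adjusted p = 6.31e-13), up in 36 pairs, with groups that overlap. *Creld2*, an ER stress-induced disulfide isomerase, rose by 0.82 in all 39 pairs, from a median of 6.40 to 7.16 log2 CPM. *Sdf2l1* rose by 0.50 and *Syvn1*, a ubiquitin ligase of ER-associated degradation, by 0.34. The most abundant chaperones moved little. *Hspa5*, the Hsp70 of the ER, rose by 0.12 and *Hsp90b1*, its Hsp90, by 0.12, both among the densely read genes. The sensors and factors of the response changed by little as well. *Xbp1* rose by 0.13 and *Atf6* by 0.07 (limma adjusted p = 0.0399). The only member that fell was *Vimp*, by 0.08. Of the 34 genes 12 were densely read, and 14 of the others rose when those were left out. Neighbouring steps of secretion moved less. Of 30 genes of ER translocation and N-glycosylation 5 rose and 4 fell, and of 37 genes of ER to Golgi vesicles 13 rose and 5 fell. The former counts were 6 and 7 with the depth ratio as a covariate, and 8 rose without DB. The latter list held 3 that fell without DB. In the group of chaperonin and proteasome genes, 11 of 46 rose and 8 fell. *Psmd9*, a chaperone of proteasome assembly, rose by 0.25 in 36 pairs and *Cct7* of the chaperonin by 0.16, while *Psmb9* and *Psmb10* of the immunoproteasome fell by 0.14 and 0.11.

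Promoters of these folding genes were searched for the sequences to which their known regulators bind, in windows from 250 bases upstream of the start given by RefSeq (build GRCm38.p6), which matched 9697 of the tested genes by symbol. The ER stress response element, CCAAT, any 9 bases, CCACG, on either strand, was in 9 of 25 matched genes of the ER list and in 16 of all 9697 (0.165%). The 9 are *Calr*, *Canx*, *Creld2*, *Derl3*, *Dnajc3*, *Hsp90b1*, *Hspa5*, *Pdia6* and *Syvn1*, all of which rose. The heat shock element, GAA, any 2 bases, TTC, any 2 bases, GAA, on either strand, was in 3 of 24 matched heat shock genes (12.5%) and in 46 of all (0.474%). The 3 are *Dnajb6*, *Hspd1* and *Hspe1*, and the last 2 share 1 stretch, so this share counts it for both. The other windows of these lists hold neither run of letters, which says nothing of other forms of the elements. In the stretches shown, no match overlapped that of another of the 6 motifs searched. The stretches below are shown as examples of both motifs in genes that rose, with the motif in capitals, each 5' to 3' on the strand of its gene. A match is a run of letters and not a measured binding site. The lines hold the ER stress element of *Derl3* (chr10:75893222-75893280, plus strand), *Creld2* (chr15:88819500-88819558, plus strand), *Hspa5* (chr2:34772005-34772063, plus strand), *Syvn1* (chr19:6046512-6046570, plus strand) and *Hsp90b1* (chr10:86705513-86705676, minus strand, 2 copies), then the heat shock element of *Hspe1* (chr1:55088039-55088096, plus strand) and *Dnajb6* (chr5:29735832-29735884, plus strand).
Derl3: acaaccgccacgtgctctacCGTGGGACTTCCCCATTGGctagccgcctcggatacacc
Creld2: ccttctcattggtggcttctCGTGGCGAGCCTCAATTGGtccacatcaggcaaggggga
Hspa5: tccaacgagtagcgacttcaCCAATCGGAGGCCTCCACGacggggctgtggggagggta
Syvn1: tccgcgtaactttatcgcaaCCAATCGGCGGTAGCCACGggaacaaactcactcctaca
Hsp90b1: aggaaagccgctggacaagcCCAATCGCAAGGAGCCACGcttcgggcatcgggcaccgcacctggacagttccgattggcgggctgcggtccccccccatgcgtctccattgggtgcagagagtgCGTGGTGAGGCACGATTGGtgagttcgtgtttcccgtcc
Hspe1: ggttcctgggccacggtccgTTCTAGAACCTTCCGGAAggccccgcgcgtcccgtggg
Dnajb6: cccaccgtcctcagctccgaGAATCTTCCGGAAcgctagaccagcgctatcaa

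The stretch of *Hspe1* also serves *Hspd1*, its neighbour on the opposite strand, and holds 2 overlapping copies of the element. The genes under the same motif did not move by the same size. *Derl3* and *Creld2*, with 1 copy of the ER element each, changed by 1.66 and 0.82, while *Hsp90b1*, with 2 copies, changed by 0.12. *Hspe1* and *Hspd1*, the mitochondrial chaperonin pair, rose by 0.19 and 0.10, and *Dnajb6*, a co-chaperone of Hsp70, by 0.13.

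**Figure D3:**
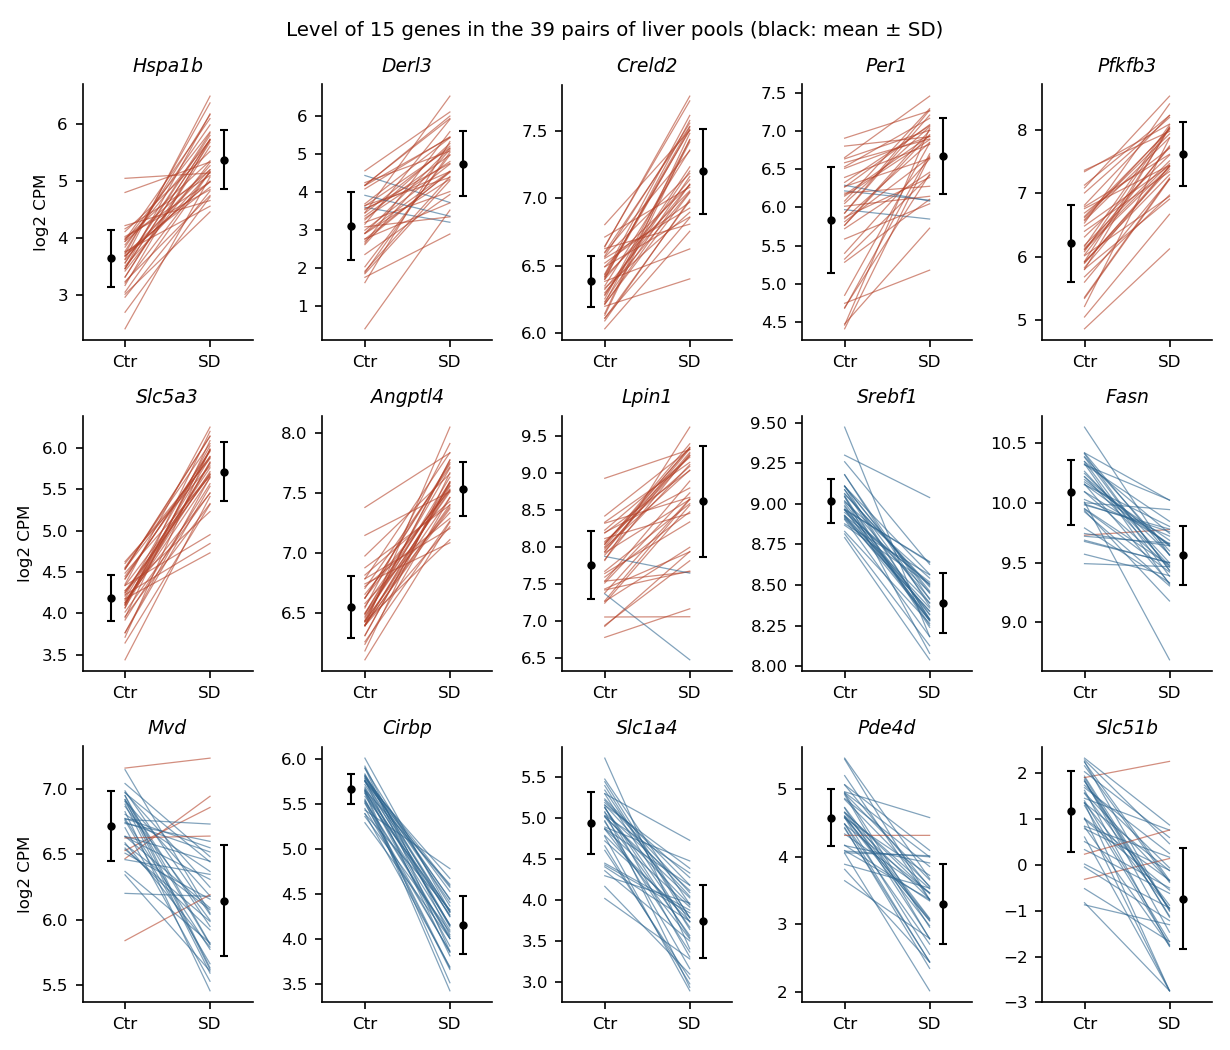
Each panel gives the level (log2 CPM) of 1 of 15 genes in the Ctr and SD pool of each of the 39 pairs, joined by a red line where SD was higher and a blue line where it was not, with the mean and standard deviation of each group in black beside them. *Hspa1b*, *Creld2*, *Pfkfb3*, *Slc5a3* and *Angptl4* rise in all 39 pairs, and *Srebf1*, *Cirbp* and *Slc1a4* in none.

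Other stress programs moved apart. Among 24 genes of the integrated stress response, 10 rose and 6 fell. Those that rose include *Ddit4*, an inhibitor of mTORC1 (0.68), *Chac1*, which degrades glutathione (0.48), and *Ddit3*, which encodes Chop (0.30). *Ddit4* is also in the list of glucocorticoid-responsive genes. Those that fell are in part enzymes and carriers of amino acids. *Psat1*, of serine synthesis, lay at -0.13 to 3.22 log2 CPM in Ctr (median 1.67) and -0.14 to 2.34 in SD (median 0.84), and fell by 0.68 in the mean (standard error 0.12, limma adjusted p = 8.45e-06). *Atf4*, the factor for which the list is named, fell by 0.17 in 34 of 39 pairs. The value of *Asns*, which makes asparagine, was -0.31 (standard error 0.15, limma adjusted p = 0.07).

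The antioxidant list moved in the other direction. Of 23 genes driven by Nrf2, 11 fell and none rose, with a median change of -0.05. *Nqo1*, a quinone reductase, fell by 0.38 in 35 of 39 pairs, *Srxn1* by 0.31 and *Gclc*, of glutathione synthesis, by 0.17. *Nfe2l2*, which encodes Nrf2, fell by 0.10. *Hmox1*, heme oxygenase, was at 0.09 (limma adjusted p = 0.0995). Among 19 targets of p53, 12 rose and 4 fell, with a median change of 0.15. *Cdkn1a*, a brake on the cell cycle that glucocorticoids also induce, lay at 0.61 to 5.10 log2 CPM in Ctr (median 2.43) and 1.30 to 5.98 in SD (median 3.31) and rose by 0.94 (standard error 0.14). *Eda2r* rose by 0.59 and *Trp53* itself by 0.12, while *Gadd45a* fell by 0.61 and *Mdm2*, which degrades p53, by 0.08. Of 9 genes of the osmotic response and myo-inositol 3 rose and 3 fell, and 1 of them stood out. *Slc5a3*, a carrier of myo-inositol, lay at 3.44 to 4.63 log2 CPM in Ctr (median 4.18) and 4.73 to 6.25 in SD (median 5.78). All SD pools were above all Ctr pools, and the change was 1.53 (standard error 0.06, limma adjusted p = 5.25e-25). *Slc6a6*, the carrier of taurine, fell by 0.33. *Rbm3*, with *Cirbp* one of the RNA-binding proteins that cold induces, fell by 0.86 in 38 of 39 pairs, from a median of 6.09 to 5.22 log2 CPM.

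Genes that answer to glucocorticoids had the highest median of the 58 lists, 0.60. Of 27 members 21 rose and 1 fell, and the median over the list was above 0 in 38 of 39 pairs, from -0.013 in BXD101 to 0.83 in BXD87. *Fkbp5*, a co-chaperone of the glucocorticoid receptor, lay at 5.72 to 7.20 log2 CPM in Ctr (median 6.43) and 6.95 to 8.32 in SD (median 7.68). The groups overlap by little, and the change was 1.30 (standard error 0.08, limma adjusted p = 1.07e-18), up in 38 pairs. The metallothioneins *Mt2* and *Mt1*, related genes that bind zinc, rose by 1.40 and 0.81. *Tsc22d3*, which encodes the glucocorticoid-induced leucine zipper, rose by 0.60, *Cebpd* by 1.02 and *Igfbp1*, which binds insulin-like growth factors, by 0.69. *Tat*, a classical glucocorticoid target of amino acid catabolism, rose by 0.06 (limma adjusted p = 0.04) and is densely read, with 1.16 reads per exonic base. *Pdk4*, which keeps pyruvate from the mitochondrion, was the member that fell. It lay at 3.52 to 6.29 log2 CPM in Ctr (median 4.85) and 2.95 to 5.44 in SD (median 3.86), a fall of 0.95 (standard error 0.10) in 37 of 39 pairs.

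Immediate early genes rose in the same libraries. Of 30 members 18 rose and none fell, with a median change of 0.24. *Fos* rose by 1.04 from a low level, a median of 0.75 log2 CPM in Ctr and 1.72 in SD, *Jun* by 0.53, *Nr4a2* by 1.07 and *Ctgf*, a matrix protein and target of Yap, by 1.35. Among 24 genes of the circadian clock 10 rose and 3 fell. *Per1*, which glucocorticoids also induce, lay at 4.41 to 6.91 log2 CPM in Ctr (median 5.97) and 5.18 to 7.46 in SD (median 6.84) and rose by 0.85 (standard error 0.10). *Cry1* rose by 0.42, *Per2* by 0.34 and *Usp2* by 0.75, *Nr1d1* fell by 0.12 and *Per3* by 0.31, and *Dbp* was at 0.12 (limma adjusted p = 0.0728). The lowest Ctr pools of *Usp2* and *Per3* lay at 2.58 and 2.74 log2 CPM, far under their Ctr medians of 6.47 and 6.42. Their median changes over the pairs were 0.58 and -0.40. In insulin and growth hormone signalling 13 of 31 genes rose and 6 fell. *Socs2*, which growth hormone induces and which damps its receptor, rose by 1.11 in 37 pairs, from a median of 4.77 to 5.89 log2 CPM. *Foxo1* rose by 0.48 and *Irs2* by 0.45, both of which are restrained by insulin, and *Insr*, the insulin receptor, by 0.12.

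Of 51 genes of cyclic nucleotide signalling 14 rose and 18 fell, a share in each direction near the background. *Pde4d*, a phosphodiesterase that degrades cAMP, lay at 3.65 to 5.46 log2 CPM in Ctr (median 4.59) and 2.02 to 4.58 in SD (median 3.37) and fell by 1.28 (standard error 0.10). *Pde6c*, which degrades cGMP, fell by 1.11, and *Pde4b* by 0.97 in all 39 pairs. *Akap8l*, of the family of kinase A anchors, rose by 0.62 in all 39 pairs, *Adcy1*, an adenylate cyclase, by 0.58 and *Creb1*, a factor that cAMP activates, by 0.31. Of 23 genes of actin, Srf and Yap 10 rose and 7 fell. *Tes*, of focal adhesions, rose by 1.54 in 38 pairs, while *Vcl* and *Actg1* fell by 0.21 each. Without the block 3 members of this list fell.

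**Figure D4:**
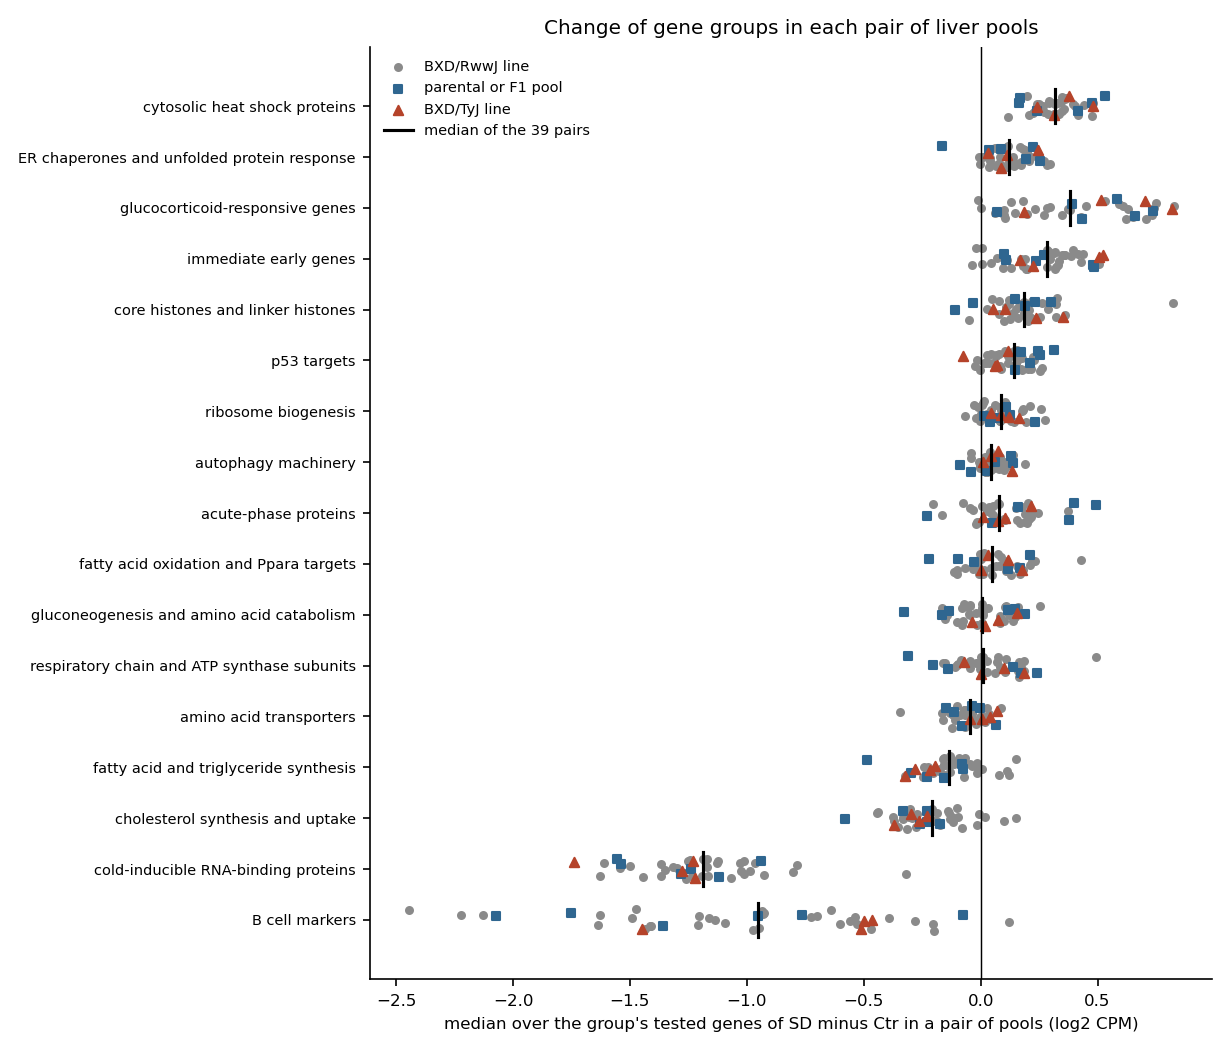
Each point is the median over the tested genes of a list of the change (SD minus Ctr, log2 CPM) in 1 pair, for 17 lists, with BXD/RwwJ lines as grey circles, parental and F1 pools as blue squares, the 4 BXD/TyJ lines as red triangles and a black bar at the median of the 39 pairs, which can differ from the median over genes of the mean change given in the text. The heat shock list lies above 0 in all 39 pairs, and cholesterol synthesis in 3, while gluconeogenesis and the respiratory chain spread around 0.

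Lipid synthesis fell. Of 24 genes of cholesterol synthesis and uptake 20 fell and 1 rose, with a median change of -0.24, below 0 in 36 of 39 pairs. *Mvd*, of the mevalonate pathway, lay at 5.84 to 7.16 log2 CPM in Ctr (median 6.76) and 5.46 to 7.24 in SD (median 6.09) and fell by 0.57 (standard error 0.07, limma adjusted p = 8.87e-09), while 5 pairs showed a higher level in SD. *Mvk*, an earlier enzyme of the same pathway, fell by 0.57 in 37 pairs. *Sqle*, of the later steps, fell by 0.29 and *Insig1*, which holds back the Srebp factors, by 0.26. *Srebf2*, the factor of the pathway, fell by 0.12. *Ebp* was the member that rose, by 0.07.

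Fatty acid and triglyceride synthesis followed with 15 of 23 genes down and 3 up, and a median change of -0.08 (9 genes down without the block, 8 without the densely read genes). Of the 23 genes 12 were densely read, so the last count is out of fewer genes. *Srebf1*, the factor that drives lipogenesis, lay at 8.79 to 9.47 log2 CPM in Ctr (median 8.99) and 8.04 to 9.04 in SD (median 8.37) and was lower in SD in 39 of 39 pairs. Its change was -0.63 (standard error 0.03, limma adjusted p = 4.28e-22). *Fasn*, fatty acid synthase, fell by 0.53 and *Gpam*, which starts triglyceride synthesis, by 0.52, the latter in all pairs. *Acly*, which supplies acetyl-CoA, fell by 0.29. *Pnpla3*, a target of Srebp1c, had the largest fall of the list, 1.55 (standard error 0.26), in 32 of 39 pairs, and varied widely among Ctr pools, from -0.85 to 5.47 log2 CPM. Not every step moved. *Scd1*, stearoyl-CoA desaturase, was at 0.02 (standard error 0.02, limma adjusted p = 0.455) and *Acaca*, acetyl-CoA carboxylase, at -0.05 (standard error 0.05, limma adjusted p = 0.411). *Lpin1*, a phosphatidate phosphatase and glucocorticoid target, went the other way. It lay at 6.78 to 8.93 log2 CPM in Ctr (median 7.87) and 6.48 to 9.62 in SD (median 8.73) and rose by 0.86 (standard error 0.08).

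Genes of fatty acid oxidation and Ppara targets leaned up, most by little. Of 49 genes of fatty acid oxidation and Ppara targets 23 rose and 2 fell, with a median change of 0.05 (14 rose without the block, 15 without the densely read genes). Of the 49 genes 23 were densely read, so the last count is out of fewer genes. *Angptl4*, which inhibits lipoprotein lipase, lay at 6.11 to 7.38 log2 CPM in Ctr (median 6.49) and 7.09 to 8.05 in SD (median 7.53) and rose by 0.98 (standard error 0.05) in all 39 pairs. It is also in the list of glucocorticoid-responsive genes. The lipid droplet coats *Plin4* and *Plin5* rose by 1.20 and 0.47 and the Ppara targets *Cyp4a14* and *Acot1* by 0.84 and 0.95, the latter a member of a cluster of near-identical copies and so uncertain. *Cpt1a*, the gate of fatty acids into the mitochondrion, rose by 0.12. *Fgf21*, a fasting hormone, was at 0.22 (standard error 0.18, limma adjusted p = 0.299). The 2 members that fell were *Pdk4*, by 0.95 in 37 of 39 pairs, and *Ppargc1a*, by 0.17.

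Of 27 genes of bile acid synthesis and transport 9 fell, a share near that of all genes, and 2 rose, with a median change of -0.02. *Slc51b*, a bile acid exporter of the basolateral membrane, lay at -0.87 to 2.33 log2 CPM in Ctr (median 1.35) and -2.75 to 2.26 in SD (median -0.88) and fell by 1.90 (standard error 0.18, limma adjusted p = 3.11e-12) in 36 of 39 pairs. At the lower end of this range a library holds no read of it. *Abcg5* and *Abcg8*, both parts of the sterol exporter to bile, fell by 0.33 and 0.27. *Cyp7a1*, the rate-limiting enzyme of bile acid synthesis, was at -0.07 (standard error 0.05, limma adjusted p = 0.246), and *Nr0b2*, the repressor that bile acids induce, at -0.01 (standard error 0.06, limma adjusted p = 0.841). Of 21 genes of apolipoproteins and lipoprotein assembly 4 rose and 1 fell, and of those 2 rose without BXD70.

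Glucose genes showed no common direction. Of 41 genes of glycolysis, glycogen and glucose uptake 8 rose (19.5%, against 27.9% of all genes) and 12 fell (29.3%, against 28.8%). *Pfkfb3*, which makes the activator of phosphofructokinase, lay at 4.86 to 7.37 log2 CPM in Ctr (median 6.13) and 6.12 to 8.54 in SD (median 7.62) and rose by 1.42 (standard error 0.07, limma adjusted p = 1.55e-22) in all 39 pairs. *Ppp1r3g*, which targets a phosphatase to glycogen after feeding, rose by 0.98. *Ppp1r3c*, of the same family, fell by 0.45, and *Hk2* fell by 0.38. In gluconeogenesis and amino acid catabolism 9 of 57 genes rose, a share below that of all genes, and 14 fell (4 and 8 without the block, 2 and 6 without the densely read genes). Of the 57 genes 43 were densely read, and densely read genes were called less often in general (29.9% against 58.5%). The share of all genes is therefore not a like background for this list. *Pck1*, the cytosolic gate of gluconeogenesis, rose by 0.14 and *Slc37a4*, which carries glucose-6-phosphate into the ER, by 0.17. *G6pc*, the last step, was at 0.10 (limma adjusted p = 0.0521). *Hal*, of histidine breakdown, fell by 0.19 in all 39 pairs.

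Mitochondrial genes changed by little, and their counts depended on depth. Of 25 genes of the tricarboxylic acid cycle 4 rose and 6 fell, and *Dlat*, of the pyruvate dehydrogenase complex, fell by 0.25 in 38 pairs. Of 75 subunits of the respiratory chain and ATP synthase 4 rose and 2 fell, with 11 that rose without DB, 2 without BXD70 and 15 with the depth ratio as a covariate. Of 76 mitochondrial ribosomal proteins 17 rose and 8 fell, with 21 that fell without BXD70 and 17 with the covariate. *Mrps9* fell by 0.15 and *Mrps6* rose by 0.25. Of 16 genes of peroxisome biogenesis 5 rose and 7 fell.

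Enzymes that clear drugs showed no common direction. Of 43 cytochrome P450 genes of families 1 to 3, 13 rose and 9 fell, and without the block 2 rose. *Cyp2b10*, the target of the receptor Car, ranged from -2.77 to 4.32 log2 CPM in Ctr (median 2.36) and from -0.91 to 6.07 in SD (median 3.37), with a change of 1.11 (standard error 0.25, limma adjusted p = 2.02e-04) and a rise in 28 of 39 pairs. *Cyp2j9* fell by 0.96 in 37 pairs. *Cyp3a11* and *Cyp2e1*, abundant enzymes of the hepatocyte, were at 0.05 (limma adjusted p = 0.308) and 0.02 (limma adjusted p = 0.456). Members of the Cyp2c family are close copies and their reads may be split. Of 42 conjugation enzymes 5 rose and 7 fell, with *Ugt2b37* at 0.88 and *Sult1c2* at -0.61, and 14 fell with the depth ratio as a covariate.

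Of 17 genes of iron handling 8 fell and 1 rose (4 fell without the block). *Steap4*, a metalloreductase, rose by 0.45 in all 39 pairs, while *Id1* and *Bmp6*, of the pathway that controls hepcidin, fell by 0.34 and 0.21 and *Tfrc*, the transferrin receptor, by 0.18. *Hamp*, hepcidin itself, was at -0.08 (limma adjusted p = 0.0771). Among 31 amino acid transporters 12 fell and 8 rose. *Slc1a4*, a carrier of alanine, serine and cysteine, lay at 4.02 to 5.73 log2 CPM in Ctr (median 5.02) and 2.89 to 4.73 in SD (median 3.78) and was lower in SD in all 39 pairs, by 1.20 on average (standard error 0.08). *Slc1a5*, its glutamine-carrying relative, fell by 0.70, and *Slc43a1*, a carrier of branched-chain amino acids, rose by 0.49. Of genes that mark position in the lobule, 4 of 16 pericentral genes rose and 5 fell, and 3 of 16 periportal genes rose and 6 fell. The periportal median was 0.015, and -0.20 over the 6 members left without the densely read genes, of which 1 rose and 5 fell. *Lgr5* and *Nkd1*, pericentral targets of Wnt, fell by 0.55 and 0.35.

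Genes that build ribosomes rose. Of 51 ribosome biogenesis genes 30 rose and 7 fell, with a median change of 0.08. *Nop2* rose by 0.43, *Nol8* by 0.42 in all 39 pairs and *Rrs1* by 0.32, while *Utp14b* fell by 0.98 in all pairs and *Ncl*, nucleolin, by 0.05. Of 75 cytosolic ribosomal proteins 4 rose and none fell, with 15 up and 1 down with the depth ratio as a covariate, 11 up without DB and 1 without BXD70. Of 78 translation factors and tRNA synthetases 20 rose and 18 fell (12 rose without the block). *Eif4ebp3*, an inhibitor of cap-dependent translation, lay at 4.42 to 5.76 log2 CPM in Ctr (median 5.00) and 5.65 to 6.65 in SD (median 6.17) and rose by 1.10 (standard error 0.05) in all 39 pairs. The tRNA synthetases *Lars*, *Cars* and *Mars* fell by 0.37, 0.33 and 0.21.

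Splicing factors moved in both directions beyond the background, with 16 of 39 up and 15 down. *Tra2a* rose by 0.88 and *Hnrnph3* by 0.55, both in 39 of 39 pairs, and *Rbmx* and *Hnrnpd* fell by 0.58 and 0.50 in all of them. Among 18 histone genes 11 rose and 2 fell, with a median of 0.19. *Hist2h3c2* lay at -2.77 to 1.38 log2 CPM in Ctr (median 0.38) and 0.47 to 2.98 in SD (median 1.80) and rose by 1.56 (standard error 0.11). Replication-dependent histone mRNAs have no poly(A) tail, and the libraries were made by poly(A) selection, so these values describe a minor part of them, and histone copies share reads. Of 43 subunits of Mediator and RNA polymerase II 13 rose and 6 fell, and of 305 numbered Zfp genes 122 rose and 69 fell, with *Zfp428* at 0.84 and *Zfp618* at -1.39.

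Autophagy, by which cells digest their own parts, leaned up. Of 33 genes of the autophagy machinery 19 rose and 4 fell, with a median of 0.06. *Atg14*, of the complex that starts the autophagosome, rose by 0.41 in 38 pairs and *Map1lc3b*, its membrane mark, by 0.21, while *Atg7*, which activates that mark, fell by 0.21. *Sqstm1*, a cargo receptor, was at 0.03 (limma adjusted p = 0.28). Of 37 lysosomal genes 11 rose and 2 fell (6 rose without the block). In DNA replication 12 of 32 genes rose and 9 fell. *E2f8*, a repressor of cell cycle genes, lay at 2.25 to 5.35 log2 CPM in Ctr (median 3.65) and 4.28 to 6.43 in SD (median 5.23) and rose by 1.70 (standard error 0.11). *Esco2* rose by 1.11, and the helicase subunits *Mcm6* and *Mcm3* fell by 0.57 and 0.39. Of 22 mitosis genes 5 rose and none fell, among them *Aurka* by 0.41 and *Ube2c* by 0.49, with 2 that rose without the block.

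Acute-phase genes rose, and few coagulation and complement genes were called. Of 24 acute-phase genes 15 rose and none fell, with a median of 0.13, and 0.30 without the densely read genes. Beside plasma proteins the list holds receptors and signalling genes, among them *Il1r1*, *Il6ra*, *Socs3* and *Stat3*. *Il1r1*, the receptor of interleukin 1, lay at 5.89 to 7.09 log2 CPM in Ctr (median 6.57) and 6.60 to 8.16 in SD (median 7.35) and rose by 0.78 (standard error 0.05) in 38 pairs, and *Il1rn*, its antagonist, by 0.72. *Lbp*, which binds bacterial lipopolysaccharide, rose by 0.35, *Lcn2* by 0.63 and *Saa1*, which has close copies, by 0.20. *Socs3*, an inhibitor of cytokine receptors, was at 0.04 (standard error 0.13, limma adjusted p = 0.795). Of 37 coagulation and complement genes 3 rose and 2 fell, with 9 and 6 with the depth ratio as a covariate and 6 that rose without DB. Of these 37 genes 33 were densely read, against 11 of the 24 acute-phase genes. Since densely read genes changed less in general, the 2 lists cannot be compared directly.

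Of 34 interferon-stimulated genes 12 fell and 8 rose (4 and 3 without the block), shares near those of all genes and a median change of 0.0066, with *Mx1* at -0.51 and *Oas3* at 0.33. Of 24 MHC genes 9 fell and 1 rose. *Ciita* and *Nlrc5*, the regulators of MHC class II and class I, fell by 0.49 and 0.40. B cell markers fell beside them. Of 18 markers 17 were listed and 8 passed the filter on low levels, of which 7 fell and none rose, and their summed level was 17.9 to 66.2 CPM in Ctr (median 37.8) and 8.57 to 45.1 CPM in SD (median 18.4), lower in SD in 39 of 39 pairs. *Cd79a*, of the B cell receptor, lay at 0.49 to 2.91 log2 CPM in Ctr (median 1.78) and -2.75 to 1.58 in SD (median 0.10) and fell by 1.82 (standard error 0.18), and *Ms4a1*, which encodes CD20, fell by 1.44. T and NK cell markers summed to 24.5 to 77.6 CPM in Ctr (median 41.3) and 14.8 to 52.5 CPM in SD (median 28.3), higher in SD in 2 of 39 pairs. Of 22 such markers 9 were tested, and 5 fell, *Themis* by 1.33 and *Cd4* by 0.54. With a mean of at least 1 log2 CPM required, 2 B cell and 2 T or NK cell markers fell. Fewer cells of a type and less RNA per cell cannot be told apart in bulk tissue, here and in what follows. The part of these cells in the changes of the MHC and interferon genes was not tested.

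Other resident cells moved less. Of 19 markers of sinusoidal endothelium 10 rose and 1 fell, with a summed level of 933 to 1822 CPM in Ctr (median 1356) and 1095 to 1899 CPM in SD (median 1404), higher in 28 of 39 pairs. *Lyve1*, a hyaluronan receptor, rose by 0.84 in 38 pairs and *Gpr182* by 0.37, while *Kdr*, a receptor of vascular endothelial growth factor, fell by 0.16. Of 14 markers of Kupffer cells, the macrophages of the liver, 4 rose and 2 fell. *Cd163*, a scavenger receptor that glucocorticoids induce, lay at 3.99 to 5.98 log2 CPM in Ctr (median 5.08) and 4.51 to 7.08 in SD (median 5.61) and rose by 0.58, *Timd4* fell by 0.32 and *Clec4f* rose by 0.09. The Kupffer sum was 484 to 1087 CPM in Ctr (median 756) and 477 to 1299 CPM in SD (median 813). Of 23 stellate cell and matrix markers 3 rose and 4 fell, of 6 tested cholangiocyte markers (sum 136 to 241 CPM in Ctr and 113 to 237 in SD) 3 fell, *Sox9* among them by 0.41, and of 6 tested erythroid and platelet markers 1 fell, *Klf1* by 0.31. Neutrophil markers summed to 3.12 to 25.1 CPM in Ctr (median 7.72) and 2.49 to 22.8 CPM in SD (median 6.79). Only 3 of 13 were tested and *S100a9* fell by 0.95. Of 14 exocrine pancreas markers 1 was listed, at a sum of at most 7.50 CPM, and it was not called. Among hepatocyte markers 3 of 16 rose, among them the transcription factors *Foxa2* by 0.13 and *Hnf4a* by 0.09.

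Several of the largest changes in the tested set came from genes outside the lists. *Rad51c*, of homologous recombination, rose by 1.74 from a median of 1.01 to 2.61 log2 CPM, in all 39 pairs. *Mroh6* rose by 1.72 and *Chd3os*, an antisense transcript, by 1.65, and strand was kept in the counting. *D130043K22Rik* fell by 1.88 from a median of 5.14 to 3.26 log2 CPM, *5930430L01Rik* by 1.76, *Lrtm1* by 1.65 and *Fam83f* by 1.63, each in all 39 pairs. In 17 genes, of 12871 tested with 56.7% called, no SD pool overlapped the Ctr pools, 8 that rose and 9 that fell. Among them, besides those named above, *Serpinh1*, the collagen chaperone Hsp47, rose by 1.04, *Snrnp48*, of the minor spliceosome, by 0.71 and *Lman2l*, a cargo receptor of the ER, by 0.70. *Herc3* fell by 2.07, *Lrrc16a* by 1.48, *Gramd1c*, a sterol transfer protein, by 1.09, *Sort1*, the sorting receptor sortilin, by 1.05, *Wdr6* by 1.03, *Vti1a*, a Snare protein, by 0.79 and *Mir22hg*, the host transcript of a microRNA, by 0.73. The genes named here for this reason were chosen after their values were seen.

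Most of the genes with the most reads among those called moved by little. Of those that rose, *Lifr*, the receptor of leukemia inhibitory factor, changed by 0.19, *Egfr*, the receptor of epidermal growth factor, by 0.15, *Acsl1*, which activates fatty acids, by 0.07, *Iqgap2* by 0.06 and *Cp*, ceruloplasmin, by 0.05. Of those that fell, *Fasn* changed by -0.53, *Acly* by -0.29, *Abcc2*, a canalicular exporter, by -0.19, *Aox3*, an aldehyde oxidase, by -0.18 and *Igf1* by -0.05. *Alb* was at 0.02 (standard error 0.03, limma adjusted p = 0.533). *Iqgap2*, *Acly*, *Abcc2*, *Fasn* and *Aox3* are densely read, with 0.52 to 0.73 reads per exonic base, as is *Alb*. Since densely read genes changed less in general, these sizes cannot be compared directly with those of other genes.

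The 4 BXD/TyJ lines (05, 29, 29t and 32) are from an older set of lines of the same cross and were not used above. Age and the number of mice behind each of their libraries are not given in the sources used here. Lines 29 and 29t share a number in their labels and were kept as separate lines. The 4 lines were paired in the same way, in a fit of their own. Of the 12871 genes 2279 (17.7%) were called, 1015 up and 1264 down, and 2216 of these had been called in the 39 pairs, all in the same direction. The count of genes changed by SD in liver of the 4 BXD/TyJ lines was 1037 without line 32, 1309 without line 29 and 262 without the block. Of the 3593 genes that rose in the 39 pairs 94.9% had a mean change above 0 in the BXD/TyJ lines, and of the 3706 that fell 95.5% had one below 0. The list medians were 0.35 for heat shock proteins, 0.39 for glucocorticoid-responsive genes and -0.27 for cholesterol synthesis, against 0.29, 0.60 and -0.24 in the 39 pairs. *Hsph1* rose by 1.53, *Slc5a3* by 1.60 and *Pfkfb3* by 1.97, and *Srebf1* fell by 0.71, each in 4 of 4 lines. *Acaca*, not called in the 39 pairs, fell by 0.40 (limma adjusted p = 0.017). The difference between the sets of lines was not tested.

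**Figure D5:**
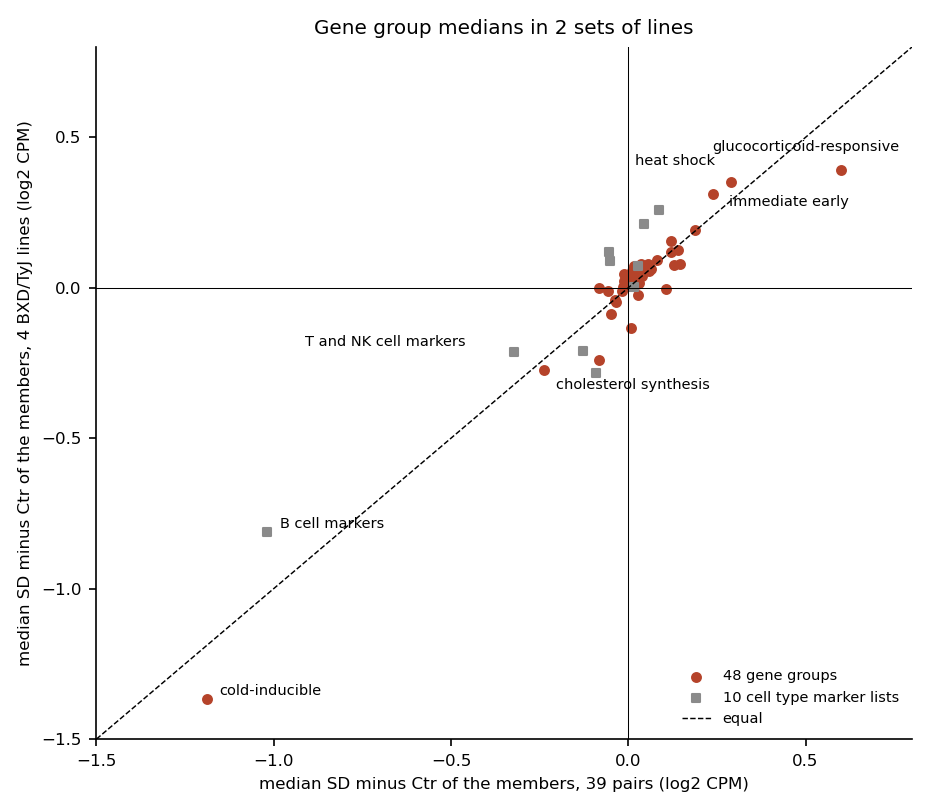
Each point is a list, placed by the median change (SD minus Ctr, log2 CPM) of its members in the 39 pairs (horizontal axis) and in the 4 BXD/TyJ lines (vertical axis), with 48 gene groups as red circles, 10 marker lists as grey squares and a dashed line where both are equal. The cold-inducible genes and B cell markers lie at the lower left, and the heat shock list at 0.29 and 0.35 at the upper right.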

How the data were processed

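Poly(A) RNA of pooled livers was sequenced single-end with a stranded kit. Per the methods of the study, the authors aligned reads to mm9 with STAR, counted them per RefSeq gene and strand with htseq-count, left out low genes and computed TMM-scaled log2 CPM with edgeR. Removal of duplicate reads and the versions of STAR, htseq-count and edgeR are not given in the sources used here. The deposited log2 values were analysed as they are. Reads recovered from them were whole for 100% of values (within 0.02 reads).

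SD minus Ctr was fitted in limma 3.58.1 (R 4.3.3) with the pair of pools as a block and a trended variance. Genes had a mean of at least 0 log2 CPM. Pools of the same line deviated together (correlations 0.215 to 0.726 over 39 pairs, median 0.58). p-values were adjusted by Benjamini-Hochberg. In simulated data of 39 pairs and 12871 genes, 74% of genes changed by -0.25, 82% changed by 0.25, 94% changed by 0.5 and 100% changed by 1 were called, with 7 false calls.

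The gene lists and tests were chosen with earlier results of these data known. Genes named are the 2 largest rises and falls called in a list, members with a defining role, called genes that moved in 1 direction in at least 37 pairs with the 10 largest rises or falls, and the 5 called genes of each direction with the most reads. Others were chosen after their values were seen. Exonic lengths came from an mm9 annotation, and promoters from RefSeq (GRCm38.p6). Alternatives were another filter, scaling, model and set of lines, and leaving out pairs. Those with the depth ratio, without densely read genes and without DB were added after seeing the data. Some genes are not reported here.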

Additional observations from a re-analysis of the deposited data

Results flagged for a closer look

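Among the 4 BXD/TyJ lines, 1 line stood far from the other 3 in the median change of 3 of the 58 lists, by the gap to its nearest neighbour over the whole range, which was past Dixon's 95% critical value. Chance gives about 1 in 20. In BXD/TyJ 05 the 2 cold-inducible genes had a median change of -1.74 and the B cell markers one of -1.45. In BXD/TyJ 29t the osmotic response and myo-inositol list had a median change of 0.087.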

How the results depend on the processing

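Over 16 alternatives, the number of genes changed by SD in liver ran from 5993 to 7774, of genes that rose after SD in liver from 2979 to 3870 and of genes that fell after SD in liver from 3014 to 3931. The number of genes changed by SD in liver of the 4 BXD/TyJ lines was 262 without the replicate block against 2279 with it, and leaving out 1 line gave 1037 (without 32) to 2348, with 1309 without 29. Leaving out a line leaves fewer samples, and the cause of the other shifts was not tested. Among list medians, that of erythroid cell and platelet markers turned from -0.05 to 0.031 where a mean of at least 1 log2 CPM was required, and that of neutrophil markers from -0.05 to 0.039 under quantile normalization. Without densely read genes the median of bile acid genes moved from -0.02 to -0.12 and of acute-phase proteins from 0.13 to 0.30, and that of periportal genes changed sign, from 0.015 to -0.20. Of 5073 values of 321 named genes over these alternatives, none changed direction, but 80 lost their call and 11 gained one. The calls lost included 31 without the block and 12 in BXD/RwwJ lines alone. Without the block many lists of small changes held fewer called members, such as P450 genes (13 to 2 up) and ribosomal proteins (4 to 0 up). Depth limits genes near 0 log2 CPM, which held few reads in a library.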
